A study of Mus musculus with 20 samples.

Results

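This account follows 33 mouse genes of macrophages and inflammation in liver and in subcutaneous adipose tissue (SAT) after surgical removal of visceral fat. The genes were chosen by symbol, as 33 of the 40440 gene entries kept from the count table, and each had a single entry. By role they are 11 pan-macrophage surface and lysosomal genes, 7 genes of lipid-associated macrophages, 6 chemokine ligands, 2 chemokine receptors, 3 cytokines and 4 pattern recognition receptors. The choice used no measured value of these libraries as a threshold, but it was made with earlier results of these data known.

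RNA sequencing libraries fell into 4 groups of 5, which were livers after removal of the epididymal visceral adipose tissue (VAT), livers after sham surgery, SAT after VAT removal and SAT after sham surgery. The mice were C57BL/6J males, 8 to 9 months old at the operation, and all groups were put on a high-fat diet once it was done. Sham mice had the abdominal incision and kept their fat pads. How long the diet lasted is not stated in the labels. The labels do not say that every library came from a different mouse, so p-values measure the spread between these libraries. Libraries held 20307159 to 43618452 counted reads. Values are CPM, read counts scaled to library size, after TMM normalization within a tissue unless another scale is named, and errors are SDs over 5 libraries or standard errors (SE) of a log2 difference.

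Macrophages take up debris and lipid, sense microbial and tissue damage through pattern recognition receptors, and call in further cells by releasing chemokines and cytokines. Obesity on a fat-rich diet is known to bring monocyte-derived macrophages into adipose tissue, where those that wrap dying adipocytes switch on a lipid-handling programme marked by Trem2, Gpnmb, Cd9, Spp1 and Itgax. The liver has its own resident macrophages, the Kupffer cells, and similar lipid-associated macrophages gather in fatty liver. In whole tissue RNA, fewer cells of a type and less RNA per cell cannot be told apart.

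The promoters of a few of these genes show the letters that macrophage transcription factors are known to read. The 250 bases before the start of transcription were read on GRCm38.p6 from RefSeq, which held a promoter for 25 of the 33 genes. They are shown for Gpnmb and Trem2, whose levels peaked in the same livers, and for Itgam and Spp1, which were among the genes furthest above and below 0 in the comparison between tissues. Capitals mark matches to GAGGAA, the core read by PU.1, to TGANTCA, or to TATAAA, each searched on both strands. TGANTCA is a loose form of the AP-1 site that allows any middle base. All 4 lie on the plus strand, at chr6:49036268-49036517 for Gpnmb, chr17:48346151-48346400 for Trem2, chr7:128062390-128062639 for Itgam and chr5:104434861-104435110 for Spp1.
Gpnmb: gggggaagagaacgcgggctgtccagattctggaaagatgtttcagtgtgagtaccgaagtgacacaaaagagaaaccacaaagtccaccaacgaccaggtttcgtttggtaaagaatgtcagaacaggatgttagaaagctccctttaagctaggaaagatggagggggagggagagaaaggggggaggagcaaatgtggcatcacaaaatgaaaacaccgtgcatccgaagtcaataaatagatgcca
Trem2: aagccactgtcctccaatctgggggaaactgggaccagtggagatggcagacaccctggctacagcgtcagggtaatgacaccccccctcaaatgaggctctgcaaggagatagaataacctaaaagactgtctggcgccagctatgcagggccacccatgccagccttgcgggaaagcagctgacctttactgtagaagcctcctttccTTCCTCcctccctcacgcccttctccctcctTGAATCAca
Itgam: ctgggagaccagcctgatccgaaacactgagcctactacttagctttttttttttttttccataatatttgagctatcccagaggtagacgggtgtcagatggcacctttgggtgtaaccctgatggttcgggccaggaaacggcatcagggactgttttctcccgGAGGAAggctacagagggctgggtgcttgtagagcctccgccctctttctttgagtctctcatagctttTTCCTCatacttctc
Spp1: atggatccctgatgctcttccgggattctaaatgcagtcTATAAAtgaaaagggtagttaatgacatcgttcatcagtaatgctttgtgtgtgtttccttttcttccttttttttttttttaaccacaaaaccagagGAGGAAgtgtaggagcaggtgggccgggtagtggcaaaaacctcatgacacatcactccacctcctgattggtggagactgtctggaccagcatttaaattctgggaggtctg

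In the Itgam window GAGGAA occurred on the plus strand at -84 and on the minus strand at -15, counted from the start. In the Trem2 window it occurred on the minus strand at -40, and in the Spp1 window at -113 on the plus strand. The Trem2 window also held a match to the loose AP-1 form at -9, with A as the middle base. The Gpnmb window held no match to any of the motifs searched. GAGGAA was present in 12 of the 25 promoters, or 48%, and in 23.1% of all 27025 promoters of the same length. AP-1 letters were present in 5 of the 25 (20%) and in 6.87% of all, and TATAAA in 5 (20%) and in 13% of all. CACGTG, the E-box read by the MITF and TFE family, was in 0 of the 25 and in 6.05% of all. These matches describe letters and were not tied to any measurement.

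Several of the genes sit beside each other in the genome, given here on GRCm38 from GENCODE M21. Ccl2 (82035571 to 82037453) and Ccl7 (82045712 to 82047525) are neighbours on chromosome 11, as are Ccl9 (83572919 to 83578636), Ccl6 (83587882 to 83593087), Ccl3 (83647844 to 83649355) and Ccl4 (83662584 to 83664683). Itgam (128062640 to 128118491) and Itgax (128129547 to 128150657) are neighbours on chromosome 7. Of the 4926 exonic bases of Itgam, 3450 also lie in exons of Gm49368 on the same strand, and the rule for counting reads in such overlaps is not stated in the labels. Lyz2 has a close paralog, Lyz1, with which it may share reads.

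The labelled tissues matched their defining genes. Alb, the albumin gene of hepatocytes, had 3.74 to 31.1 CPM in SAT and 32480 to 53580 CPM in livers, and Adipoq, the adipocyte hormone adiponectin, had 983 to 2356 CPM in SAT and 0 to 0.352 CPM in livers. Clec4f, which marks Kupffer cells, was at 0 in 9 of the 10 SAT libraries and had 24.8 to 99.0 CPM in livers. A pair of sham SAT libraries, 3 and 4, stood apart. Their summed levels of 18 B and T lymphocyte genes were 1161 and 1180 CPM, against 19.2 to 37.2 CPM in the other 8 SAT libraries. Their adipocyte sums over 10 genes were 15700 and 13860 CPM, against 21630 to 29500 CPM. SAT library 2 after VAT removal held 25830 CPM of 10 skeletal muscle genes and sham SAT library 2 held 2247 CPM. Sham liver 5 had 2170 CPM summed over 20 interferon response genes, against 276 to 643 CPM in the other 9 livers.

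The most abundant of the genes per length was Lyz2, the lysozyme of myeloid cells, in both tissues. On the scale that takes all 20 libraries together, it had 219 ± 49.7 CPM per kilobase of exon in sham SAT and 60.3 ± 21.6 CPM per kilobase in sham livers (SD, n = 5 each). In sham SAT it was followed by Lgals3 (68.2 CPM per kilobase), Ctss (63.9) and Tyrobp (48.8), and in sham livers by Ctss (56.4), Mpeg1 (49.6) and Spp1 (42.4). Within their spread Lgals3, Ctss and Tyrobp overlapped in sham SAT, as Lyz2, Ctss, Mpeg1 and Spp1 did in sham livers. Il6, the cytokine interleukin 6, was last in both. It had 8 reads in sham liver 5 and 0 in the other 9 livers, where a count of 0 allows up to 3 reads by counting error alone. In SAT it had 10, 0, 0, 0 and 6 reads after VAT removal and 4, 2, 0, 3 and 0 reads after sham surgery, and it passed the filter on low counts in no comparison.

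The first comparison asked whether taking out visceral fat altered these genes in the liver. None of the 31 genes that passed the filter was called at an adjusted p of 0.05 in edgeR's quasi-likelihood test, and 0 of 17078 genes of the whole table were (0%). At an unadjusted p under 0.05 there were 0 of the 31, against 9.9% of all genes tested. DESeq2 and limma-voom also called 0 of the 31. The livers after VAT removal and after sham surgery overlapped for each of the 31 genes, while 2.44% of all genes tested had groups that did not overlap. Their median log2 difference, VAT removed minus sham, was -0.295, beside 0.0117 over all genes tested, and 23 of the 31 lay below 0, beside 47.8% of all genes. Without sham liver 5 the median was 0.0521, with 17 of the 31 above 0.

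**Figure D1:**
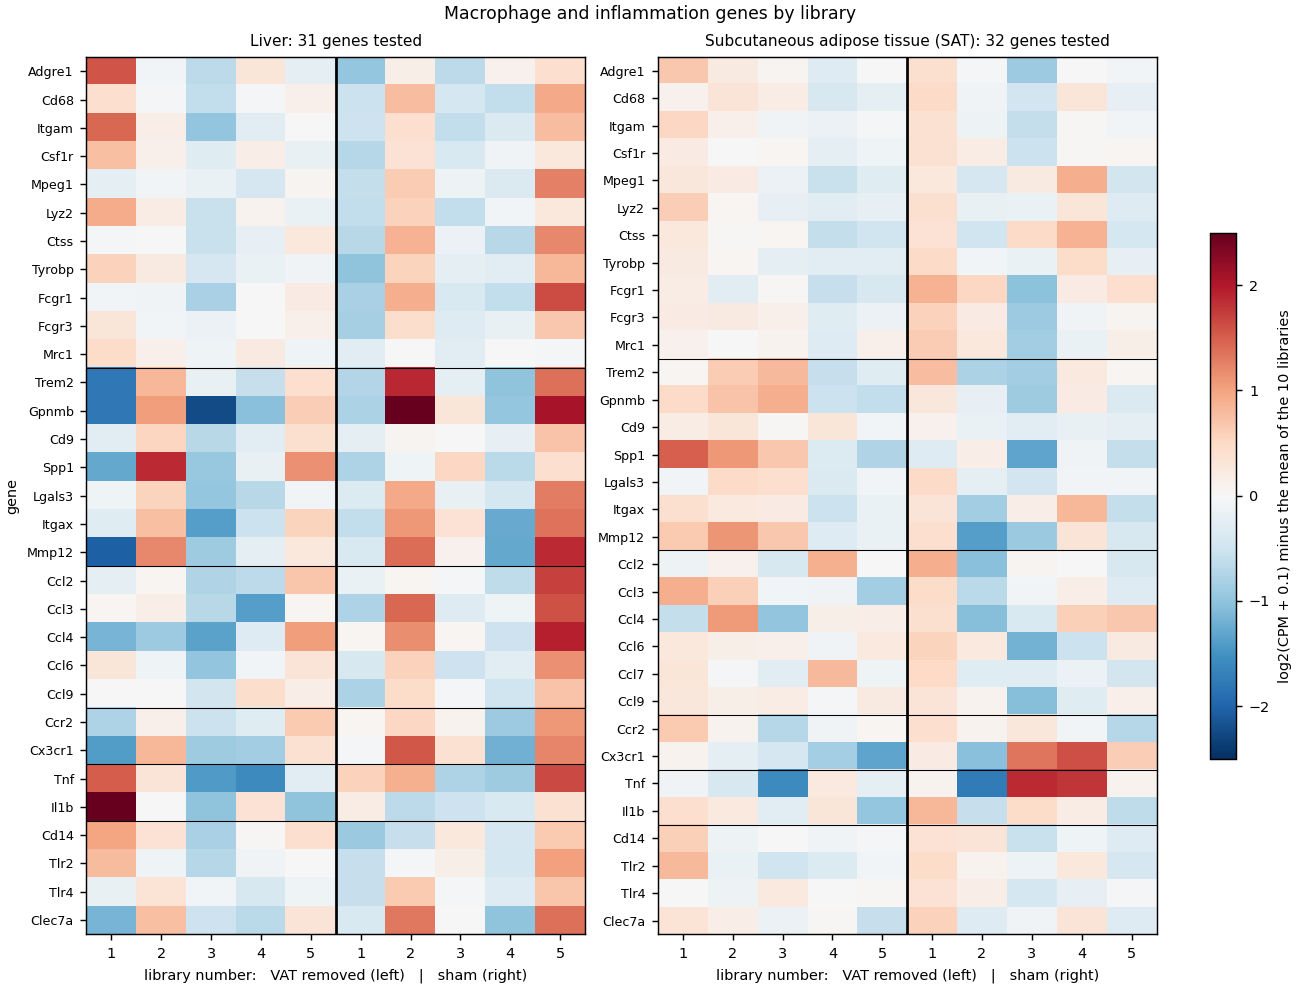
Each row is a gene, each column a library, and colour gives log2(CPM + 0.1) minus the gene's mean over the 10 libraries of that tissue; thin lines separate the roles, from pan-macrophage genes at the top to pattern recognition receptors at the bottom. Sham livers 2 and 5 were the highest of the sham livers for 26 of 31 genes, and sham SAT libraries 3 and 4 stood out for Cx3cr1 and Tnf.

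Levels varied widely between libraries within each group of livers. Sham liver 5 was the highest of all 10 livers for 20 of the 31 genes, and sham livers 2 and 5 were the top pair of the sham group for 26. Among livers after VAT removal, liver 1 was the highest of all 10 for 7 genes, which were Adgre1, Itgam, Csf1r, Lyz2, Mrc1, Il1b and Cd14. In that group livers 2 and 5 were the top pair for 14 other genes, among them Trem2, Gpnmb, Cd9, Spp1, Lgals3, Itgax and Mmp12, which are all 7 lipid-associated genes. The lowest of the 10 values lay in liver 3 after VAT removal for 11 genes and in sham liver 1 for 10. The ratio of the highest to the lowest liver of a group had a median over the genes of 2.93 after VAT removal and 3.30 after sham surgery.

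Among the 11 pan-macrophage genes, 5 had log2 differences above 0 and 6 below in liver, with a median of -0.00327. Adgre1, which encodes the F4/80 surface antigen, had 97.4, 31.4, 20.8, 40.6 and 27.7 CPM in livers after VAT removal and 16.8, 36.5, 20.8, 35.2 and 44 CPM in sham livers. A single library, liver 1 after VAT removal, lay above the other 9, which overlapped. Adgre1 had a log2 difference of 0.51 ± 0.42 (SE; edgeR adjusted p = 0.739), and -0.03 without that library. Cd68, a lysosomal glycoprotein of phagocytes, had 21.5, 15.7, 10.4, 15.7 and 17.5 CPM after VAT removal and 11.1, 27.3, 11.9, 10.5 and 31.1 CPM after sham surgery. All 5 livers after VAT removal lay inside the sham range or just below it. Cd68 had a log2 difference of -0.19 ± 0.34 (SE; edgeR adjusted p = 0.905), which was 0.08 without sham liver 5 and 0.000389 without sham liver 2. Mpeg1, perforin-2 of the phagosome, ran from 105 to 148 CPM after VAT removal and from 92.6 to 338 CPM after sham surgery, with the high end in sham liver 5 (log2 difference -0.49 ± 0.32, edgeR adjusted p = 0.667, and -0.12 without that library). Mrc1, the mannose receptor, had the smallest unadjusted p of the set in liver (0.0572), with a mean of 78.2 ± 13.5 CPM after VAT removal and 66.0 ± 6.68 CPM after sham surgery (SD, n = 5 each). Its log2 difference was 0.24 ± 0.12 (SE; edgeR adjusted p = 0.523).

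Of the 7 lipid-associated genes, 6 had log2 differences below 0 in liver and Spp1 had one above 0, with a median of -0.585. Gpnmb, a glycoprotein of lipid-laden macrophages, had 2.65, 19.4, 1.92, 4.5 and 14.3 CPM after VAT removal and 5.35, 65.5, 11.6, 4.73 and 39.1 CPM after sham surgery. High values were found in livers 2 and 5 of both groups, and the groups overlapped. Gpnmb had a log2 difference of -1.55 ± 0.88 (SE; edgeR adjusted p = 0.610), which was -0.82 without sham liver 2 and -2.08 without liver 2 after VAT removal. Trem2, the lipid receptor of these cells, had 1.02, 6.71, 3.28, 2.5 and 5.03 CPM after VAT removal and 2.22, 14.1, 3.19, 1.83 and 9.98 CPM after sham surgery. It too was highest in livers 2 and 5 of both groups, with a log2 difference of -0.75 ± 0.65 (SE; edgeR adjusted p = 0.748), which was -0.21 without sham liver 2 and -1.08 without liver 2 after VAT removal. Itgax, which encodes CD11c, ran from 2.72 to 12.2 CPM after VAT removal and from 2.94 to 18.6 CPM after sham surgery (log2 difference -0.48 ± 0.54, edgeR adjusted p = 0.818). Lgals3, galectin-3, ran from 5.6 to 16.4 CPM and from 8.14 to 26.9 CPM in the same order of groups (-0.59 ± 0.40, edgeR adjusted p = 0.686). Without sham liver 5 these were -0.15 for Itgax and -0.27 for Lgals3, and without liver 2 after VAT removal they were -0.74 and -0.84 in that order. Spp1, osteopontin, had 24.0, 211, 30.4, 51.3 and 130 CPM after VAT removal and 34.1, 54.1, 84.1, 36.5 and 78.5 CPM after sham surgery. Its highest values were those of livers 2 and 5 after VAT removal, while sham livers 3 and 5 led the sham group. Bile duct and other liver cells are also known to express Spp1.

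**Figure D2:**
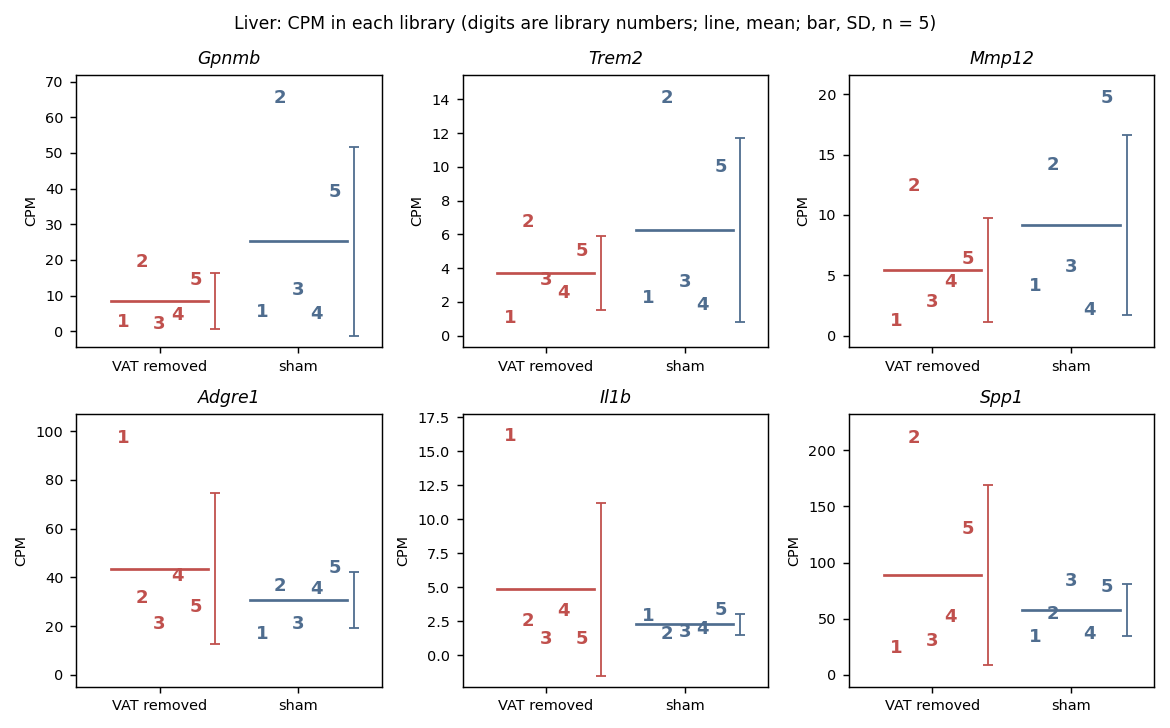
CPM of 6 genes in each liver library, with digits for library numbers, a line for the mean and a bar for the SD (n = 5), on a scale that starts at or below 0. Gpnmb, Trem2 and Mmp12 were led by livers 2 and 5 in both groups, whereas Adgre1 and Il1b were led by liver 1 after VAT removal, at 97.4 and 16.1 CPM.

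All 5 chemokine ligands tested in liver had log2 differences below 0, beside 47.8% of all genes tested. Those of Ccl9 and Ccl6 were small, at -0.02 and -0.29. Ccl3, a monocyte attractant, had 0.575, 0.631, 0.303, 0.154 and 0.577 CPM after VAT removal and 0.281, 1.66, 0.426, 0.505 and 1.89 CPM after sham surgery. Only sham livers 2 and 5 exceeded 1 CPM, and the other 3 sham livers lay inside the range of the livers after VAT removal. Ccl3 had a log2 difference of -1.06 ± 0.56 (SE; edgeR adjusted p = 0.573). Its neighbour Ccl4 ran from 0.101 to 0.944 CPM after VAT removal and from 0.252 to 1.86 CPM after sham surgery, with a log2 difference of -1.21 ± 0.69 (SE; edgeR adjusted p = 0.604). Without sham liver 5 the differences were -0.66 for Ccl3 and -0.63 for Ccl4, and without liver 5 after VAT removal that of Ccl4 was -2.16. The values of both rest on 2 to 65 reads per library. Ccl2, the main attractant of Ccr2-bearing monocytes, ran from 0.857 to 2.52 CPM after VAT removal and from 0.947 to 5.19 CPM after sham surgery. Its log2 difference was -0.54 ± 0.48 (SE; edgeR adjusted p = 0.751), and 0.13 without sham liver 5. The receptors Ccr2 and Cx3cr1, which guide monocytes, averaged 4.22 ± 1.80 and 3.56 ± 2.42 CPM after VAT removal and 5.55 ± 2.69 and 6.34 ± 4.13 CPM after sham surgery (SD, n = 5 each).

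Il1b, the cytokine interleukin 1 beta, had 16.1, 2.5, 1.21, 3.27 and 1.21 CPM after VAT removal and 2.88, 1.58, 1.74, 1.93 and 3.34 CPM after sham surgery. The value of liver 1 after VAT removal was far above the other 9, which overlapped. Il1b had a log2 difference of 1.09 ± 0.70 (SE; edgeR adjusted p = 0.655), and -0.16 without that liver. Tnf, tumour necrosis factor, had 1.44, 0.574, 0.101, 0.0768 and 0.341 CPM after VAT removal and 0.703, 0.888, 0.213, 0.189 and 1.6 CPM after sham surgery. Its log2 difference was -0.47 ± 0.75 (SE; edgeR adjusted p = 0.883), and 0.05 without sham liver 5. Of the pattern recognition receptors, Cd14 lay above 0 at 0.40 and Tlr2, Tlr4 and Clec7a below 0, at -0.08, -0.24 and -0.66.

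Marker levels moved with these libraries. The interferon response genes, which summed to 276 to 396 CPM after VAT removal and 383 to 2170 CPM after sham surgery, had negative differences in 20 of 20 cases with a median of -1.42, 18 with an unadjusted p below 0.05 and 0 called. Sham liver 5, the library highest for most macrophage genes, was also their highest library. The 11 Kupffer cell genes summed to 483 to 987 CPM after VAT removal and 456 to 735 CPM after sham surgery, with the top in liver 1 after VAT removal. Marco, a gene of that list, had 126 CPM in liver 1 after VAT removal and 0.401 to 32.6 CPM in the other livers. In SAT the list summed to 503 to 600.5 CPM after VAT removal and 395 to 601 CPM after sham surgery, so its sum does not mark Kupffer cells alone. Of the 11 genes, 10 lay above 0 in liver, and Clec4f alone had an unadjusted p below 0.05 (0.78 ± 0.28, edgeR adjusted p = 0.409). The part of these marker lists in the results for the 33 genes was not tested.

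Other genes of the same pathways gave no call in liver either. Of 28 further macrophage genes tested, 15 lay above 0 and 13 below, with 1 at an unadjusted p under 0.05, Folr2, a folate receptor of resident macrophages (0.80 ± 0.32, edgeR adjusted p = 0.445). Of 16 further genes of lipid-associated macrophages, 8 lay above 0 and 8 below. The 2 with the smallest p were Fabp5, a fatty acid carrier (1.40 ± 0.52, edgeR adjusted p = 0.419), and Atp6v0d2, a proton pump subunit (0.86 ± 0.36, edgeR adjusted p = 0.473). Of 20 further NF-kappaB-driven genes, 12 lay above 0 and 8 below, with 0 at an unadjusted p under 0.05. Of 19 genes of receptor signalling, 10 lay above 0 and 9 below, and Irak1, a kinase of the Toll-like receptor pathway, had the smallest p (-0.22 ± 0.06, edgeR adjusted p = 0.309).

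The second comparison asked the same of SAT, the fat depot left in place. Of 32 genes tested, 0 were called at an adjusted p of 0.05 by edgeR, as were 0 of 18530 genes in all (0%), and DESeq2 and limma-voom called 0 of the 32. At an unadjusted p under 0.05 there were 3 of the 32, against 10.6% of all genes tested. These were Cd9 and Spp1, with higher means after VAT removal (4.38% of all genes were below 0.05 in that direction), and Cx3cr1, with a lower mean (6.27% of all). In all, 16 lay above 0, beside 49.7% of all genes, and 16 below, the median was 0.00121 beside -0.00196 over all genes, and the groups overlapped for each of the 32, while 1.44% of all genes had groups that did not.

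Among the lipid-associated genes 6 of 7 had log2 differences above 0 in SAT, with a median of 0.31. Cd9, a tetraspanin of the surface and of vesicles that adipocytes and other cells express as well, had 35, 37.8, 31.3, 37.8 and 29.2 CPM after VAT removal and 32.8, 27.3, 25.3, 26.7 and 25.8 CPM after sham surgery. All 5 libraries after VAT removal lay above the sham mean of 27.6 CPM, and sham library 1 overlapped them. The log2 difference was 0.31 ± 0.10 (SE; edgeR adjusted p = 0.431), and 0.25 without sham libraries 3 and 4 (edgeR adjusted p = 0.575). Spp1 had 4.84, 3.66, 2.71, 1.30 and 0.945 CPM after VAT removal and 1.31, 1.88, 0.606, 1.57 and 1.07 CPM after sham surgery. Libraries 1, 2 and 3 after VAT removal lay above every sham library, and libraries 4 and 5 lay among them. The log2 difference was 1.06 ± 0.45 (SE; edgeR adjusted p = 0.450), on 20 to 157 reads per library. Mmp12, the macrophage elastase, had 39.0, 52.9, 39.5, 19.6 and 22.1 CPM after VAT removal and 33.2, 9.42, 12.9, 30.8 and 18.7 CPM after sham surgery. Libraries 1, 2 and 3 after VAT removal were again above every sham library (log2 difference 0.72 ± 0.39, edgeR adjusted p = 0.525). Gpnmb averaged 94.6 ± 42.0 CPM after VAT removal and 68.8 ± 21.04 CPM after sham surgery (SD, n = 5 each; log2 difference 0.46 ± 0.33, edgeR adjusted p = 0.632). Trem2 averaged 11.7 ± 4.78 CPM and 10.1 ± 4.84 CPM in the same order (0.21 ± 0.36, edgeR adjusted p = 0.872). The same SAT libraries after VAT removal, 1, 2 and 3, held 1104, 25830 and 273 CPM of the skeletal muscle genes, against 55.0 and 34.6 CPM in libraries 4 and 5. Sham library 2, at 2247 CPM of these genes, had the lowest Mmp12 of all SAT libraries, 9.42 CPM. Its Spp1, at 1.88 CPM, was the highest of the sham group. Of the 9 muscle genes tested in SAT, 7 lay above 0 and 2 below, and the sums were 34.6 to 25830 CPM after VAT removal and 15.7 to 2247 CPM after sham surgery. The part of muscle in the values of the lipid-associated genes was not tested.

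**Figure D3:**
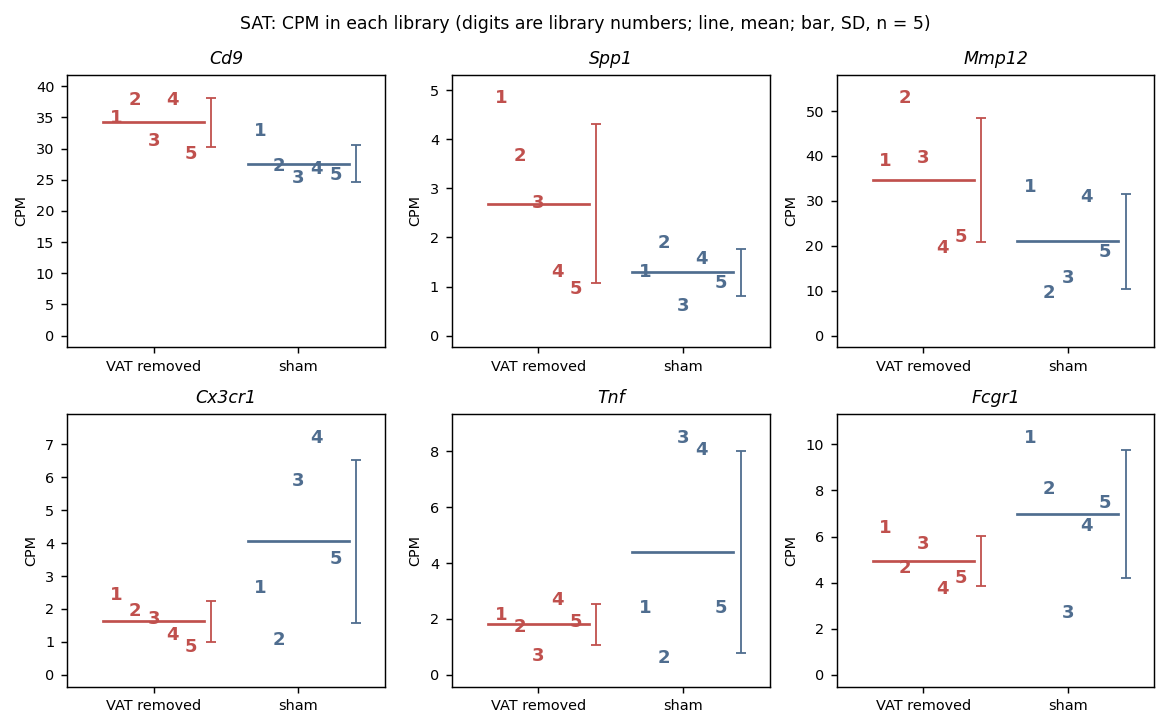
CPM of 6 genes in each SAT library, with digits for library numbers, a line for the mean and a bar for the SD (n = 5). For Spp1 and Mmp12, libraries 1, 2 and 3 after VAT removal lay above all sham libraries, and for Cx3cr1 and Tnf sham libraries 3 and 4 lay above all others.

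Cx3cr1, the fractalkine receptor, had 2.43, 1.93, 1.69, 1.21 and 0.853 CPM in SAT after VAT removal and 2.64, 1.05, 5.88, 7.20 and 3.52 CPM after sham surgery. All 5 libraries after VAT removal lay below the sham mean of 4.06 CPM, and sham libraries 3 and 4 were the highest. The log2 difference was -1.32 ± 0.47 (SE; edgeR adjusted p = 0.431), and -0.56 without those libraries (edgeR adjusted p = 0.698). Tnf showed the same libraries, with 2.13, 1.70, 0.688, 2.69 and 1.89 CPM after VAT removal and 2.40, 0.601, 8.48, 8.04 and 2.41 CPM after sham surgery. The 3 other sham libraries lay within or just below the range after VAT removal. Its log2 difference was -1.27 ± 0.63 (SE; edgeR adjusted p = 0.498), and 0.01 without sham libraries 3 and 4. The B and T lymphocyte list moved with them, lying below 0 in 18 of 18 genes with a median of -4.08, and summing to 19.8 to 37.2 CPM after VAT removal and 19.2 to 1180 CPM after sham surgery. No gene of that list was at 0 throughout SAT. Some lymphocytes are known to express Tnf and Cx3cr1. The dendritic cell genes also summed highest in sham libraries 3 and 4, at 1742 and 2020 CPM. That list shares Ccr7 with the lymphocyte list, so its sum does not mark dendritic cells alone. The part of the cells behind either list in the Tnf and Cx3cr1 values was not tested.

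For Fcgr1, the high-affinity IgG receptor, leaving out the same pair did the opposite. It had 6.38, 4.63, 5.70, 3.72 and 4.21 CPM after VAT removal and 10.3, 8.07, 2.70, 6.45 and 7.44 CPM after sham surgery. Apart from sham library 3, the lowest of all, the sham libraries lay above every library after VAT removal. The log2 difference was -0.50 ± 0.30 (SE; edgeR adjusted p = 0.559), and -0.81 without sham libraries 3 and 4 (unadjusted p = 0.00216, edgeR adjusted p = 0.555). Without that pair Fcgr1 and Mrc1 were the 2 of 32 genes of the set at an unadjusted p under 0.05, against 8.77% of all genes tested, and 0 were called. Leaving out the pair was chosen after seeing the data, and it removes sham library 3, the lowest of the 10 for both genes. Sham library 3 was the lowest of the 10 for 16 of the 32 genes, and sham library 1 the highest for 13.

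Of the 11 pan-macrophage genes, 2 had log2 differences above 0 in SAT, Adgre1 and Itgam, and 9 below, with a median of -0.0623. Apart from Fcgr1 the lowest were Ctss, a lysosomal protease, at -0.36, Mpeg1 at -0.27 and Tyrobp, a signalling adaptor, at -0.22. Adgre1 averaged 70.7 ± 18.8 CPM after VAT removal and 60.3 ± 17.6 CPM after sham surgery, and Cd68 averaged 63.4 ± 12.7 and 64.6 ± 17.4 CPM in that order (SD, n = 5 each). Their log2 differences were 0.23 ± 0.23 (SE; edgeR adjusted p = 0.753) and -0.03 ± 0.19 (SE; edgeR adjusted p = 0.974). Itgax had -0.03 ± 0.31 (edgeR adjusted p = 0.982), Ccl2 had 0.12 ± 0.35 (edgeR adjusted p = 0.928) and Il1b had -0.17 ± 0.41 (edgeR adjusted p = 0.914). Adgre1 stayed above 0 with each library left out, at 0.07 to 0.37, whereas the sign of the other 4 rested on single libraries. It turned for Cd68 and Itgax without library 4 or 5 after VAT removal or sham library 1 or 4, for Ccl2 without library 4 after VAT removal or sham library 2, and for Il1b without library 5 after VAT removal or sham library 1. Csf1r, the receptor for the macrophage growth factor, averaged 231 ± 27.2 CPM after VAT removal and 241 ± 52.6 CPM after sham surgery, and Lyz2 averaged 347 ± 99.5 and 348 ± 79.5 CPM in that order.

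Further genes of these pathways gave no call in SAT. Of 30 further macrophage genes, 6 lay above 0 and 24 below, with 1 at an unadjusted p under 0.05, Marco, a scavenger receptor (-3.20 ± 1.17, edgeR adjusted p = 0.431). Its levels were 43.4 and 117 CPM in sham libraries 3 and 4, and 1.92 to 5.56 CPM in the other 8. Of 16 further genes of lipid-associated macrophages, 13 lay above 0 and 3 below, with 0 at an unadjusted p under 0.05. That list holds Lpl, the lipoprotein lipase that adipocytes make in quantity, and its sums were 9091 and 9007 CPM in sham libraries 3 and 4, those with the low adipocyte sums, against 11610 to 14550 CPM in the other 8. The part of adipocytes in this count was not tested. Of 24 NF-kappaB-driven genes, 10 lay above 0 and 14 below, with 2 above and 1 below 0 at an unadjusted p under 0.05. Ccl11, the eosinophil attractant eotaxin, had the smallest p (0.83 ± 0.22, edgeR adjusted p = 0.431), followed by Ccl5, a chemokine that T cells make (-2.78 ± 0.83, edgeR adjusted p = 0.431), whose levels were 57.6 and 54.7 CPM in sham libraries 3 and 4 and at most 6.44 CPM elsewhere. Of 19 genes of receptor signalling, 6 lay above 0 and 13 below, 2 of the negative ones with an unadjusted p below 0.05, Il1rap (-0.38 ± 0.16, edgeR adjusted p = 0.438) and Hcst (-1.47 ± 0.64, edgeR adjusted p = 0.459). In SAT the interferon response genes lay below 0 in 20 of 20 cases, 9 with an unadjusted p below 0.05, and the highest sum of the list was 957 CPM, in sham library 5.

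The design also allows the response of the 2 tissues to be set against each other, as the log2 difference in SAT minus that in liver. The test called 0 of 32 genes of the set and 0 of 19954 genes in all (0%), and 0 of the 32 had an unadjusted p under 0.05, against 10.1% of all genes. DESeq2 and limma-voom also called 0 of the 32. Their median was 0.235 beside -0.0332 over all genes tested, with 21 of the 32 above 0. Without sham liver 5 the median was -0.0632, with 15 above 0. All 7 lipid-associated genes lay above 0, beside 46% of all genes tested, with a median of 0.723, as did the 5 chemokine ligands also tested in liver. Ccl7 lay above 0 too, but it failed the filter in liver alone, at 0 to 27 reads per library. It entered this fit through SAT, where it had 149 to 446 reads per library. The smallest p belonged to Gpnmb, with a difference in response of 1.98 ± 0.95 (SE; unadjusted p = 0.0514, edgeR adjusted p = 0.497), which was 1.25 without sham liver 2 and 2.52 without liver 2 after VAT removal. Ccl3 had 1.34 ± 0.72 (edgeR adjusted p = 0.545), Mmp12 had 1.44 ± 0.81 (edgeR adjusted p = 0.560) and Ccl7, a ligand of Ccr2 with 0 to 0.783 CPM in livers, had 1.19 ± 0.73 (edgeR adjusted p = 0.594). Without sham liver 5 these were 0.95 for Ccl3, 0.96 for Mmp12 and 0.23 for Ccl7. This fit treats liver and SAT libraries as separate animals, and the labels do not say whether a liver and a SAT library with the same number share a mouse.

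**Figure D4:**
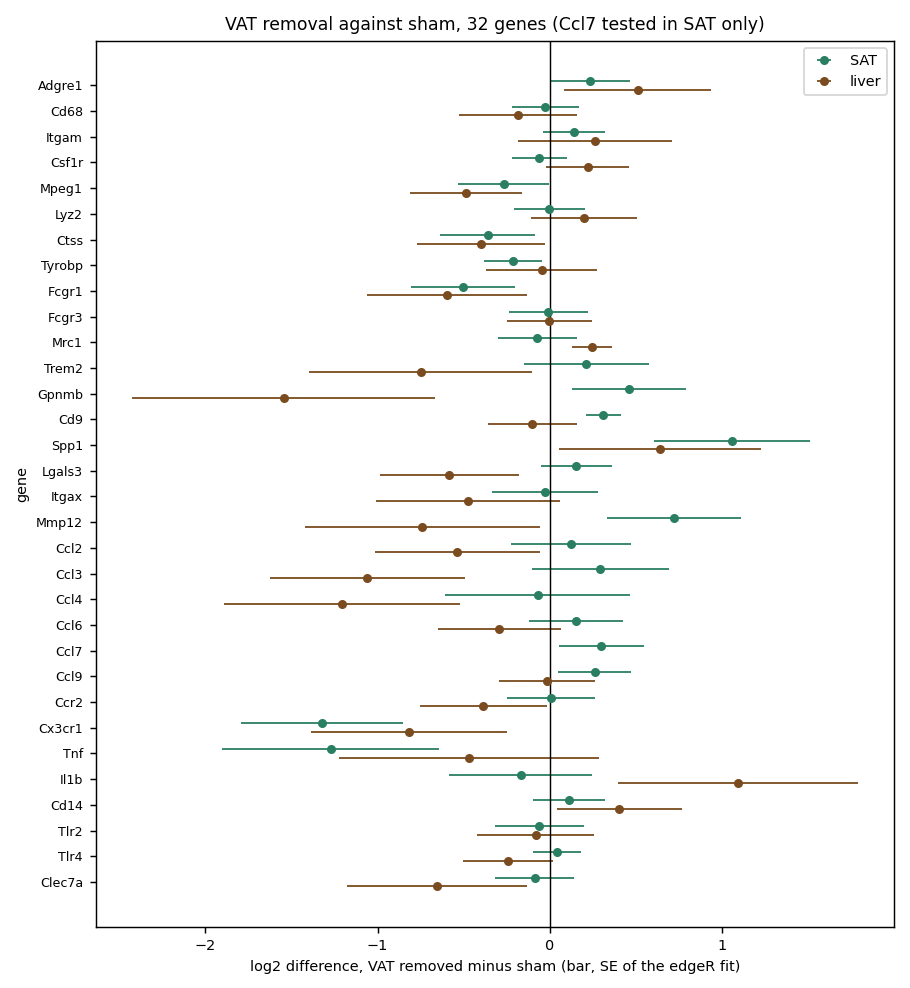
Log2 difference of VAT removed minus sham for each gene in SAT (green, upper) and liver (brown, lower), with the SE of the edgeR fit as bars. Gpnmb, at 0.46 in SAT and -1.55 in liver, had the smallest p for the difference between tissues, and none of the differences in either tissue passed an adjusted p of 0.05.

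Between the tissues of sham mice the genes differed far more than between operations, as most genes did. On the 20-library scale 19 of the 32 genes tested were called, against 67.1% of all 19954 genes, so the share called was near that of the table as a whole. Of the 19, 14 were higher in SAT (36.5% of all genes were) and 5 were lower (30.6%). The groups did not overlap for 10 of the 32, against 51.8% of all genes. The median log2 difference, sham SAT minus sham liver, was 0.634 beside 0.112 over all genes tested. Scaled by total counts alone, the medians were 1.22 and 0.726.

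Among genes higher in SAT, the chemokine Ccl7 had the largest difference. It had 8.88, 5.12, 5.10, 5.66 and 4.53 CPM in sham SAT and 0.257, 0.243, 0.0870, 0.0786 and 0.940 CPM in sham livers. The groups were apart, with a log2 difference of 4.14 ± 0.51 (SE; edgeR adjusted p = 6.16e-07). Ccl7 failed the filter in liver alone, at 2 to 27 reads per sham liver. It entered this fit through SAT, where it was high, so its place here is not independent of the filter. Itgam, the CD11b integrin chain of myeloid cells whose exons overlap those of Gm49368, had 30.02 to 59.1 CPM in sham SAT and 3.00 to 7.87 CPM in sham livers (3.20 ± 0.37, edgeR adjusted p = 2.56e-07). Ccl6, a chemokine of myeloid cells, averaged 64.5 CPM in sham SAT and 10.5 CPM in sham livers (2.62 ± 0.35, edgeR adjusted p = 1.55e-06). Lgals3 averaged 108 and 18.2 CPM in that order (2.57 ± 0.34, edgeR adjusted p = 1.87e-06), and Tlr4, the endotoxin receptor, averaged 32.5 and 6.68 CPM (2.28 ± 0.22, edgeR adjusted p = 1.91e-08). The other 9 called higher in SAT were Tnf, Ccr2, Lyz2, Ccl2, Cd68, Mrc1, Fcgr3, Tyrobp and Csf1r, at 0.81 to 2.04. Of these, Tnf (2.04 ± 0.73, edgeR adjusted p = 0.0190) lost its call without sham SAT 3, without sham SAT 4, without both and with limma-voom.

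Spp1 went furthest the other way. It had 1.07, 1.56, 0.502, 1.30 and 0.882 CPM in sham SAT and 41.6, 65.4, 103, 45.5 and 94.2 CPM in sham livers. The groups were apart, with a log2 difference of -6.02 ± 0.66 (SE; edgeR adjusted p = 1.24e-07). Il1b averaged 0.539 CPM in sham SAT and 2.79 CPM in sham livers without overlap (-2.36 ± 0.62, edgeR adjusted p = 0.00232). Mpeg1 averaged 83.0 CPM in sham SAT and 215 CPM in sham livers (-1.37 ± 0.31, edgeR adjusted p = 0.000694). Ccl3 (-1.32 ± 0.51, edgeR adjusted p = 0.0277) and Clec7a, the beta-glucan receptor dectin-1 (-1.05 ± 0.42, edgeR adjusted p = 0.0341), were called less firmly. Both lost their call with limma-voom, under total counts, without sham liver 2 or 5, without sham SAT 2 or 5, and without sham SAT 3 and 4 together. Clec7a also lost it with no filter and without sham SAT 3 alone, and Ccl3 was not tested with a filter of 1 CPM in 5 libraries.

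**Figure D5:**
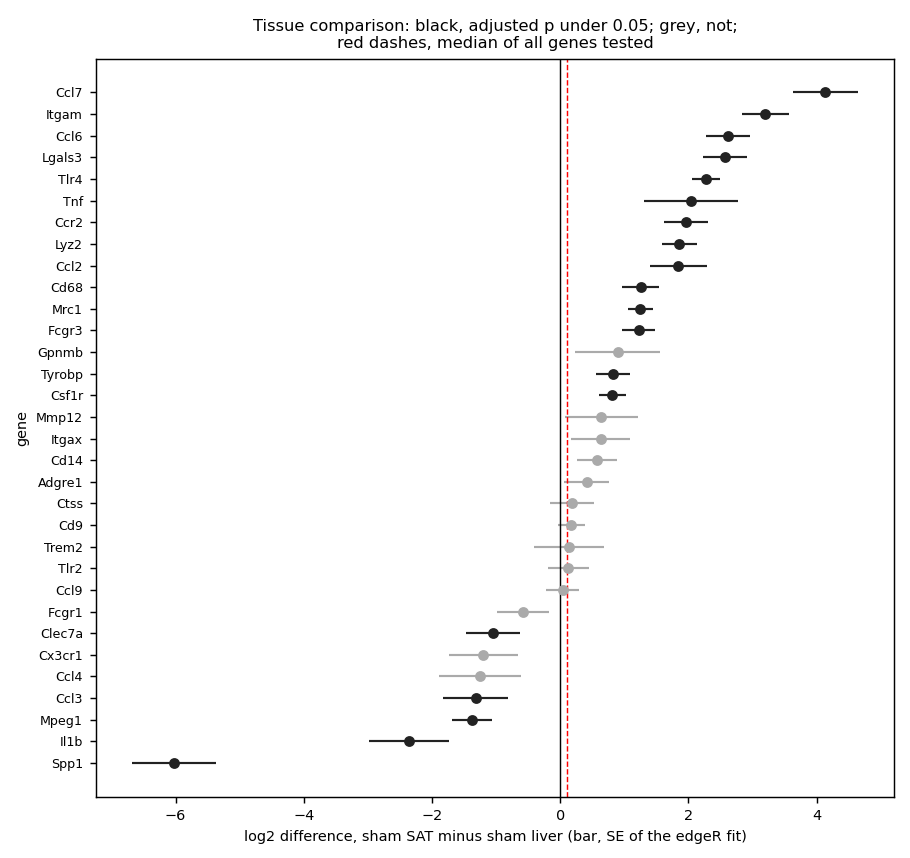
Log2 difference of sham SAT minus sham liver for the 32 genes tested, with the SE of the edgeR fit as bars; black points passed an adjusted p of 0.05 and grey ones did not, and the dashed line is the median of all genes tested (0.112). Ccl7 at 4.14 and Spp1 at -6.02 mark the ends of the range. Ccl7 failed the filter in liver alone and entered this fit through SAT.

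The 13 genes not called between tissues ran from -1.26 for Ccl4 to 0.89 for Gpnmb. They were Ccl4, Cx3cr1, Fcgr1, Ccl9, Tlr2, Trem2, Cd9, Ctss, Adgre1, Cd14, Itgax, Mmp12 and Gpnmb. Adgre1 averaged 49.8 CPM in sham SAT and 37.3 CPM in sham livers (0.41 ± 0.35, edgeR adjusted p = 0.314), and Trem2 averaged 8.36 and 7.58 CPM in that order (0.14 ± 0.54, edgeR adjusted p = 0.836). Cx3cr1 came nearest to the threshold (-1.20 ± 0.54, edgeR adjusted p = 0.0587). It was called by DESeq2 (adjusted p = 0.0233), by limma-voom (adjusted p = 0.0469), with RLE normalization (edgeR adjusted p = 0.0431) and without sham liver 1 or 4, sham SAT 4, liver 2 after VAT removal or SAT library 2 after VAT removal. Without sham SAT libraries 3 and 4, its highest SAT libraries, the difference was -1.93 (edgeR adjusted p = 0.0140). The sign turned for Ctss without sham SAT 4, for Tlr2 without sham liver 1, for Trem2 without sham liver 1, 3 or 4 or sham SAT 1, and for Ccl9 without sham liver 1 or 4 or sham SAT 1, 2 or 5. Of the 7 lipid-associated genes, Lgals3 was called higher in SAT, Spp1 was called lower and the other 5 were not called. Gpnmb was called higher in SAT by limma-voom (1.5, adjusted p = 0.0311) and without sham liver 2 (1.63, edgeR adjusted p = 0.0405). Scaled by total counts alone, Cd9 (0.76, edgeR adjusted p = 0.00459) and Itgax (1.23, edgeR adjusted p = 0.0280) were called higher too, as were Adgre1, Ccl9 and Cd14. That scaling moved the whole table, with 77.2% of all genes called and a median over all genes of 0.726. It called 19 of the 32 genes of the set higher in SAT, beside 11933 of all 19954. Cd14 was also called without sham liver 5.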

How the data were processed

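The deposited table holds the authors' raw read counts per gene for 20 libraries of ribosome-depleted total RNA, without normalization. Per the submitters' processing notes, bcl2fastq, STAR 2.5.1a, GRCm38 and featureCounts 1.46 of Subread were used. The labels and notes name no annotation, strand setting or rule for reads that map to several places. Of 40757 entries, 317 exact repeats were dropped. Groups came from the sample titles.

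Each tissue was fitted alone (edgeR 4.0.16, R 4.3.3). Genes were kept by filterByExpr, scaled by TMM, and VAT removed was set against sham in a robust quasi-likelihood test. A single fit of all 20 libraries with 4 group means gave the difference in response and sham SAT against sham liver. P was adjusted by the Benjamini-Hochberg method over all genes tested, with a threshold of 0.05, and the scripts were tested on simulated data. The SE comes from the F statistic. CPM scaled over 20 libraries is about 1.2 times that scaled within liver and about 0.82 times that scaled within SAT.

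Members and lists were chosen with earlier results of these data known. Log2 differences with SE and adjusted p are given for Adgre1, Cd68, Itgax, Trem2, Ccl2, Tnf, Il1b and Il6 where tested, for the 6 further members with the smallest p in each surgery comparison, for the 4 with the smallest p in the difference between tissues, and for the 5 largest called differences each way between sham tissues. The rule allows statistics for the members not called there as well, which are given as a range with examples. Of each list, the 2 genes with the smallest p could be named. Promoters are RefSeq's of GRCm38.p6 and gene positions GENCODE M21's.

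Alternatives were DESeq2 1.42.0, limma-voom (limma 3.58.1), RLE normalization, no filter, at least 1 CPM in 5 libraries, library number as a block and each library left out. The block was library number within a tissue, and operation plus number in the fit of all 20 libraries. Total counts as library size, and leaving out sham SAT libraries 3 and 4, were chosen after seeing the data.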

Additional observations from a re-analysis of the deposited data

Results flagged for a closer look

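In 3 of the 126 pairs of a gene and a group, 1 library lay far from the other 4 on a log scale by Dixon's gap test, which chance alone gives in about 1 of 20 groups. Fcgr1 was lowest in liver 3 after VAT removal, at 2.88 CPM, with the nearest other liver of its group at 4.79 CPM. Cd14 was highest in SAT library 1 after VAT removal, at 16.6 CPM, with the nearest at 10.9 CPM. Cd9 was highest in sham SAT library 1, at 32.8 CPM, with the nearest at 27.3 CPM. That last value is the one sham library that overlaps the Cd9 levels after VAT removal.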

How the results depend on the processing

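None of the 33 genes was called for either tissue's surgery comparison, or for the difference between tissues, under any alternative run. Counts over all genes moved. In liver 0 genes were called, against 220 by DESeq2, 3 by limma-voom, 3 with no filter, 3 with at least 1 CPM in 5 libraries and 2 with total counts as library size, and 0 to 53 with single libraries left out, the 53 without liver 3 after VAT removal. In SAT the count was 0, against 158 by DESeq2 and 0 to 1 with single libraries left out, and for the difference between tissues 0, against 124 by DESeq2 and 0 to 3. The median log2 difference of the genes between sham tissues was 0.634 and was 1.22 with total counts. The cause of these moves was not tested.

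Signs of small differences turned. In SAT, Itgax was 0.0632 with limma-voom, 0.0739 with the replicate block and 0.357 without sham libraries 3 and 4, and Tnf was 0.0134 without that pair, as Ctss was -0.175 between sham tissues. With single libraries left out, liver log2 differences ran from -0.0252 to 0.682 for Adgre1, -0.333 to 0.0847 for Cd68, -0.855 to 0.125 for Ccl2, -1.31 to 0.0505 for Tnf and -0.163 to 1.34 for Il1b. In SAT they ran from -0.144 to 0.102 for Cd68, -0.199 to 0.22 for Itgax, -0.134 to 0.443 for Ccl2 and -0.337 to 0.0912 for Il1b. Between sham tissues they ran from -0.0256 to 0.508 for Ctss, -0.00763 to 0.463 for Tlr2, -0.132 to 0.675 for Trem2 and -0.117 to 0.247 for Ccl9.

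With library number as a replicate block, 0 genes were called in liver and in SAT. Ccl4, Clec7a, Cx3cr1, Gpnmb and Lgals3 then had an unadjusted p under 0.05 in liver, all with negative differences. That was 5 of the 31 genes, beside 10.3% of all genes tested with the block. Without the block it was 0 of 31, beside 9.9% of all genes. For Gpnmb the block gave an unadjusted p of 0.00532 (edgeR adjusted p = 0.317). In the fit of all 20 libraries the block was operation plus number. It takes a liver and a SAT library of equal operation and number as the same mouse, which the labels do not state. There 0 genes were called for the difference between tissues and 12614 between sham tissues, which is 63.2% of all genes tested. In the set 16 of the 32 were called between sham tissues, which leaves out Ccl3, Clec7a and Tnf. A check by number paired each library after VAT removal with the sham library of the same tissue and number. In liver, 4 of the 5 pairs correlated in their deviations from the group means at 0.13 to 0.2, and each matched its own number best. Pair 3 was at -0.055. In SAT the pairs ran from -0.24 to 0.32, with 2 best matched to their own number. The check pairs libraries within a tissue, so it cannot show whether a liver and a SAT library share a mouse. It also does not settle whether equal numbers mark a batch. The main fits used no block because the labels do not say that equal numbers mark a shared mouse or batch. Depth limits Il6 in both tissues, Ccl7 in liver and, at 2 to 65 reads, Ccl3 and Ccl4 in liver. Counts were also low for Tnf in liver, at 2 to 55 reads per library. In SAT they were low for Ccl3 (9 to 38 reads), Ccl4 (6 to 26) and Il1b (8 to 37).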
